A study of Mus musculus with 6 samples.

Results

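The genes described here are named for the proteins of the cytosolic ribosome. They were taken by symbol, as Rpl or Rps followed by a number with the usual paralog endings, together with Rplp0, Rplp1, Rplp2 and Rpsa. This gave 85 of the 23282 genes listed, 52 of the large and 33 of the small subunit, and the symbol rule itself used no measured value. RefSeq marks 84 of them as protein coding and Rps4l as a transcribed pseudogene. The RNA came from CD4 T cells that were isolated from spleen and lymph nodes of C57BL/6 mice, in 3 WT and 3 AMPK KO samples. AMPK KO mice carried loxP-flanked Prkaa1 alleles (Prkaa1 fl/fl), which encode the catalytic subunit AMPKα1, and a Cre transgene under the CD4 promoter, which acts from T cell development onward and therefore also in CD8 T cells. WT mice were Prkaa1 fl/fl without Cre, so both groups carried the floxed alleles. The methods describe young adult females, and all cells were rested for 1 h and then stimulated with anti-CD3/CD28 antibodies for 24 h according to the sample labels, while the study's methods give a shorter stimulation.

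Each ribosome contains a large subunit, which forms peptide bonds and releases the chain through an exit tunnel, and a small subunit, which holds and decodes the mRNA. Most ribosomal protein mRNAs begin with a pyrimidine tract directly at the cap, the 5′ TOP motif, and their translation is raised by mTORC1 and restrained by LARP1. AMPK, an energy sensor, lowers mTORC1 activity, and T cells expand their ribosome content after activation.

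RNA levels were given as log2(normalized value + 1), where the normalized value is a CPM value, that is a count relative to the library total, scaled by TMM. Libraries were of the QuantSeq type, in which reads come from the 3′ end of polyadenylated transcripts, so the levels are 3′ tag levels and not values per transcript length. Differences are AMPK KO minus WT on this log2 scale, which understates the change of genes with few reads. A gene was called when its limma p-value, adjusted by Benjamini-Hochberg over the 11279 genes with a mean level of at least 1, was under 0.05. Of the 85 genes, 82 passed this filter.

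The libraries held between 9575120 and 11185400 reads on genes, and Rn45s, the ribosomal RNA precursor, took 22.4% ± 2.21 of the reads in WT and 9.89% ± 1.24 in AMPK KO (SD, n = 3 each). Prkaa1 was at 4.64, 5.24 and 4.86 in WT and at 4.08, 4.72 and 4.67 in AMPK KO, a difference of −0.43 with overlapping groups (limma adjusted p = 0.36). Where the 3′ tag lies relative to the deleted exons is not given in the sources used here, so this level does not check the labels. Of 10 T cell markers 3 were called lower, among them Cd3e (−0.66, limma adjusted p = 0.024), and Cd4 was at 6.53 to 6.83 in WT and 6.14 to 6.55 in AMPK KO. The CD8 T cell marker Cd8b1 was at 7.17 to 7.61 in WT and 7.59 to 7.98 in AMPK KO, above Cd4 in every library, and Cd8a was at 6.48 to 6.86 in WT and 6.95 to 7.08 in AMPK KO. Neither CD8 marker was called, and their summed normalized value was 231 to 305 in WT and 321 to 376 in AMPK KO. Of 10 macrophage and monocyte markers 6 were called higher, with a summed normalized value of 354 to 387 in WT and 662 to 1221 in AMPK KO. Plasma cell markers summed to 90.1 to 98.7 in WT and 381 to 455 in AMPK KO, and NK cell markers to 37.5 to 56.2 and 61.7 to 83.9. Eomes had the highest level of these NK cell markers in every library. It was the only one whose groups lay apart with AMPK KO higher (0.65, limma adjusted p = 0.057, not called). The groups overlapped for Klrb1c and Klra8. Ncr1, too low to be tested, had 0, 10 and 19 reads in WT and 0, 0 and 7 in AMPK KO. Neutrophil markers summed to 777 to 896 in WT and 502 to 742 in AMPK KO, with 2 called lower, Ngp (−1.53) and Ltf (−1.54). Early activation markers summed to 1295 to 1565 in WT and 817 to 1187 in AMPK KO, where Egr1 was called lower (−0.76, limma adjusted p = 0.0059) and Myc differed by −0.88 without being called. The other early activation markers, Nr4a1 (0.26), Cd69 (−0.18) and Il2ra (−0.23), had overlapping groups and were not called. The part of these other cells and of activation in the results below was not tested, and in bulk RNA fewer cells of a type and less RNA per cell cannot be told apart. Xist, which is made from the inactive X chromosome of females, had 32, 27 and 8 reads in WT and 2837, 1998 and 2876 in AMPK KO, a difference of 6.13. The Y-linked Ddx3y was at 8.53, 8.44 and 8.48 in WT and at 7.17, 6.93 and 7.28 in AMPK KO, a difference of −1.36. These values go against female mice as the source of the cells, since a Y-linked gene was well above 0 in all 6 libraries, and they differ with the genotype, so that sex and genotype cannot be told apart in any difference given here.

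The start regions of these genes are shown first because the TOP tract is what their mRNAs are known to share. RefSeq promoter entries on build GRCm38.p6 were matched for 64 of the 85 genes. The letters CTTTC, a short pyrimidine run, were searched in the 50 bases before and the 50 bases after each listed start. They were found on the sense strand of 33 of the 64 genes (51.6%), against 12.9% of the 8568 tested genes with an entry and 14.6% of all 27025 genes. On the antisense strand the shares were 14.1%, 11.6% and 13.8%. A match describes the letters only and is not a measured cap site. The sequences below come from 2 genes of the P stalk and from 5 of the genes called higher in AMPK KO. Each is a 30-base run, 5′ to 3′ on the gene's own strand, with CTTTC in capitals, and for Rpl11 and Rps12, where the letters were not in the window, the run is centred on the start. Counted from the listed start, the capitals begin at 1 in Rplp2, 11 in Rpl12, −17 in Rpl4 and 38 in Rpl39, where negative positions lie before the start. In Rps19 they begin at −41 for the entry shown and at 44 for another, and a further entry had none. Only in Rplp2 are they at the listed start, so the capitals do not mark TOP tracts.
Rplp2 (chr7:141447639-141447668, plus strand): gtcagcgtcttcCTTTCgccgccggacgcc
Rpl12 (chr2:32961710-32961739, plus strand): ccgtcttttcggCTTTCggctcggaggagg
Rpl4 (chr9:64173358-64173387, plus strand): caagtgacaagtCTTTCcttttcctgtggg
Rpl39 (chrX:37085173-37085202, minus strand): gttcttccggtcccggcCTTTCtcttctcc
Rps19 (chr7:24884623-24884652, plus strand): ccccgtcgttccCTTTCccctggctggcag
Rpl11 (chr4:136053379-136053408, minus strand): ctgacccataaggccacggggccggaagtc
Rps12 (chr10:23787195-23787224, minus strand): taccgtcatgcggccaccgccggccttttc

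Ribosomal protein transcripts were mostly higher in AMPK KO than in WT CD4 T cells, and Rplp1 was far beyond the other genes. Of the 82 tested genes 9 were called higher (11%) and 0 were called lower, while 2.54% of all tested genes were called higher and 3.1% lower. At an unadjusted p under 0.05 there were 29 genes, all of them higher, while 21.3% of all tested genes passed in either direction and 10.6% were higher. The median difference was 0.24, with a range of −0.22 to 3.16, and the median over all tested genes was 0.02. Differences above 0 were found for 71 of the 82 genes, and for 51.2% of all tested genes. The 3 AMPK KO libraries were all above the 3 WT libraries for 28 genes (34.1%), against 11.6% of all tested genes, and all below them for 0, against 14%. Of the 461 other genes with a mean level of at least 8, where most ribosomal protein genes lie, 30 were called higher (6.51%) and their median difference was −0.07.

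**Figure D1:**
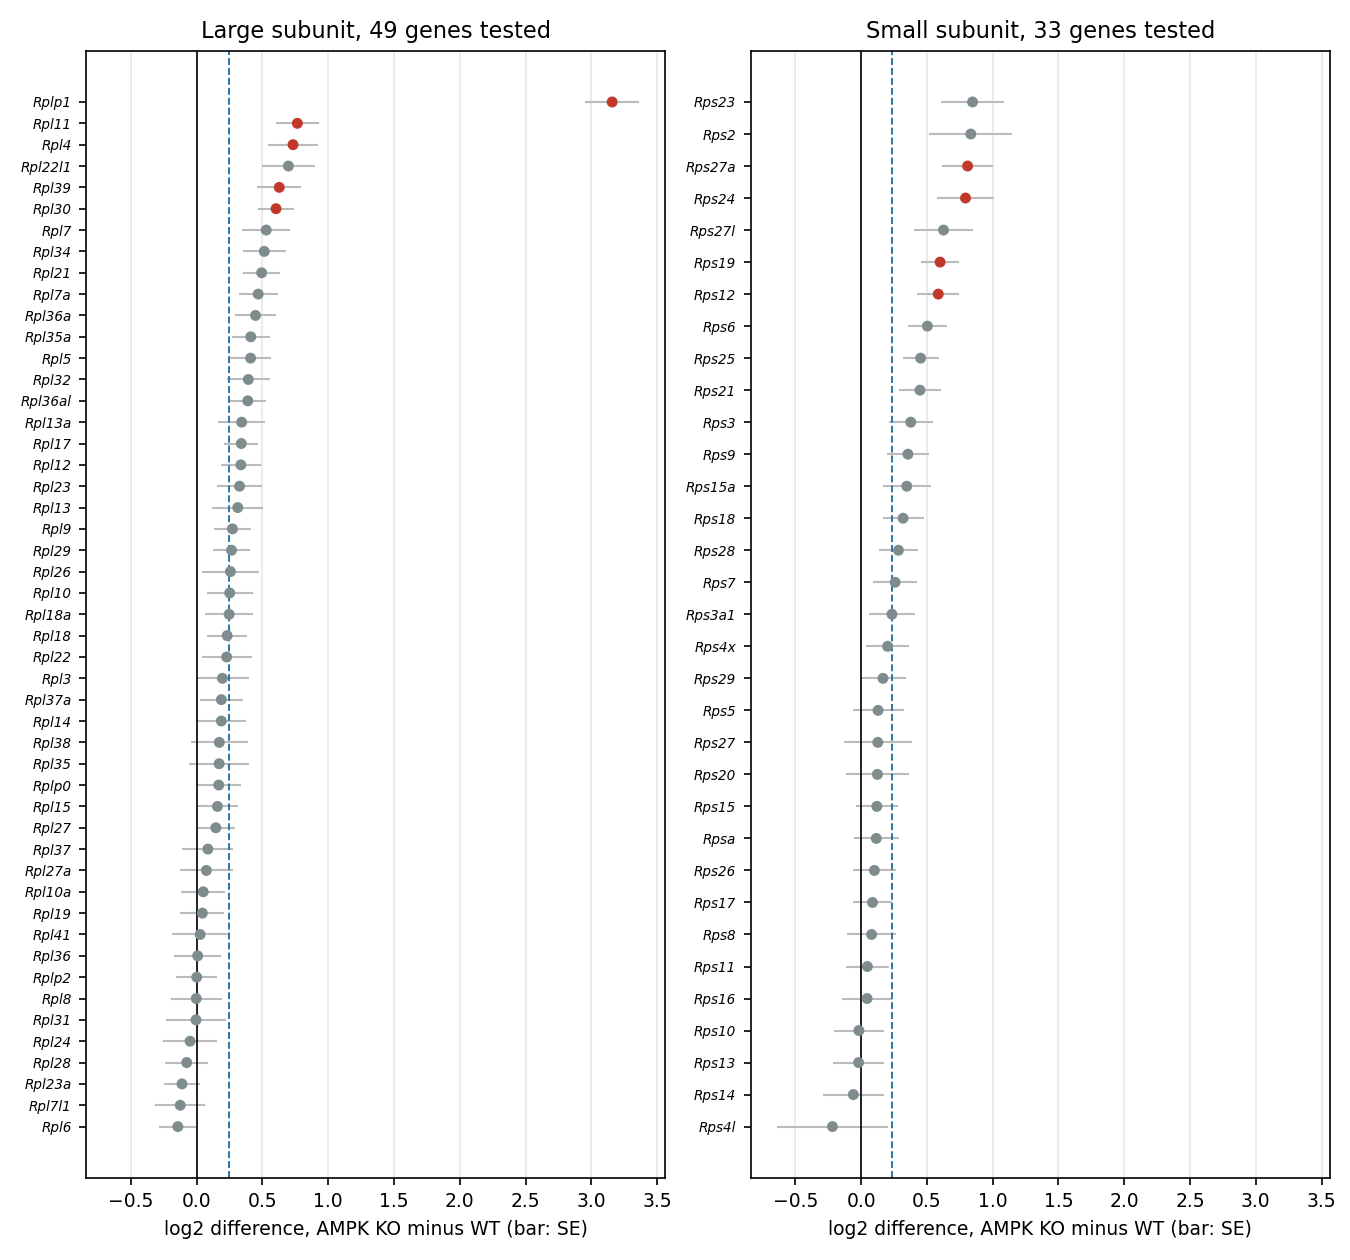
Log2 difference (AMPK KO minus WT, n = 3 each) with its standard error for the 49 large subunit and 33 small subunit genes tested. Red points were called at an adjusted p under 0.05, and the dashed line is the subunit's median, 0.25 for the large and 0.23 for the small subunit. Rplp1 stands alone at 3.16.

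The size of this difference depended on the library. The median level of the 82 genes was 9.74, 9.85 and 9.81 in WT and 9.95, 10.31 and 9.84 in AMPK KO, so that AMPK KO 2 lay above the other libraries. AMPK KO 2 exceeded the mean of AMPK KO 1 and 3 in 69 of the 82 genes, by a median of 0.49, against 0.00 over all tested genes. Erythroid markers moved with this library as well, and all 5 were above the mean of AMPK KO 1 and 3, by a median of 0.48. Their summed normalized value was 3983 to 4587 in WT and 2856 to 5556 in AMPK KO, Hba-a1 was at 10.86, 11.66 and 10.42 in the 3 AMPK KO libraries. Of the 10 macrophage and monocyte markers 6 were above the mean of AMPK KO 1 and 3, such as C1qa at 6.92, 8.04 and 6.42 and Csf1r at 8.32, 9.01 and 7.94 in AMPK KO. Neutrophil and B cell markers were each above that mean in 5 of 6 tested genes, by a median of 0.50 and 0.29. T cell markers were above it in 7 of 10, by a median of 0.24, and early activation markers in 1 of 5, with a median of −0.39. The part of any of these lists in the result was not tested. Without AMPK KO 2 the median difference fell to 0.05 and 48 of 82 genes were above 0, whereas 18 genes were called higher, with 5.9% of all tested genes called higher in that comparison. Those 18 included all 9 genes called with the 6 libraries. Quantile normalization of the 6 libraries lowered the median difference to 0.092 and the number of genes above 0 to 54 of 82. It called 8 genes higher, against 2.58% of all tested genes, and 6 of these were among the 9, with Rpl4, Rpl39 and Rps24 lost and Rpl21 and Rps25 gained. Without WT 2 there were 15 calls, with 3.55% of all tested genes called higher, and without AMPK KO 3 there were 4, with 1.73%. Without WT 1, WT 3 or AMPK KO 1 the call of Rplp1 was the only one left, and 0.629%, 0.665% and 0.638% of all tested genes were called higher.

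Expressed as a share of the reads outside Rn45s, the 85 genes took 14.9%, 14.8% and 15.2% of the reads in WT and 17.3%, 22.3% and 16.6% in AMPK KO. Every AMPK KO library was above every WT library. Rplp1 alone took 0.208%, 0.239% and 0.195% in WT and 1.62%, 2.35% and 1.57% in AMPK KO. Without Rplp1 the shares were 14.7%, 14.5% and 15.0% in WT and 15.7%, 19.9% and 15.0% in AMPK KO. AMPK KO 3 was then close to WT 3, and AMPK KO 2 remained the highest.

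**Figure D2:**
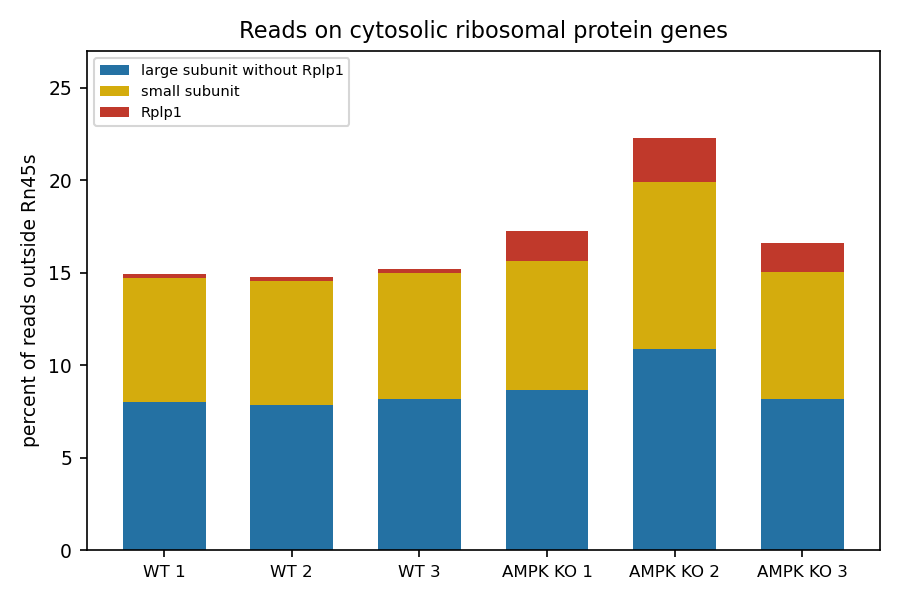
Percent of the reads outside Rn45s that fell on ribosomal protein genes in each library, stacked as large subunit without Rplp1, small subunit and Rplp1. The total was 14.8% to 15.2% in WT and 16.6% to 22.3% in AMPK KO, and AMPK KO 2 is the tallest bar.

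The P stalk is the flexible arm of the large subunit that recruits and activates the translational GTPases. It is built from Rplp0, which binds the ribosomal RNA together with the stalk base protein Rpl12, and from dimers of Rplp1 and Rplp2. Rplp1 (gene ID 56040, chr9:61913283-61914510 on GRCm38.p6) was at 10.74, 10.91 and 10.63 in WT and at 13.71, 14.36 and 13.69 in AMPK KO. The groups were separated by a wide gap, and the largest WT value was far below the smallest AMPK KO value. The difference was 3.16 ± 0.20 (SE), an 8.93-fold higher level, with a limma adjusted p = 3.6e-07. Permuting the 6 libraries in an exact two-sided test gave p = 0.1, the smallest value that 3 against 3 samples allow. In reads, Rplp1 had 15808, 19254 and 14029 in WT and 159252, 225811 and 157048 in AMPK KO.

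The other genes of the stalk did not follow Rplp1. Rplp2, the dimer partner, was at 11.19, 10.87 and 11.17 in WT and at 10.95, 11.23 and 11.05 in AMPK KO. Its groups overlapped and the difference was 0.00 ± 0.16 (SE, limma adjusted p = 0.998). Rplp0 was at 11.00, 10.87 and 10.94 in WT and at 10.95, 11.47 and 10.89 in AMPK KO, where AMPK KO 2 alone was high and the difference was 0.17 (limma adjusted p = 0.61). Rpl12 was at 8.12, 8.26 and 8.43 in WT and at 8.50, 8.88 and 8.45 in AMPK KO. The Rpl12 groups lay next to each other without overlap, and the difference of 0.34 was not called (limma adjusted p = 0.22).

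**Figure D3:**
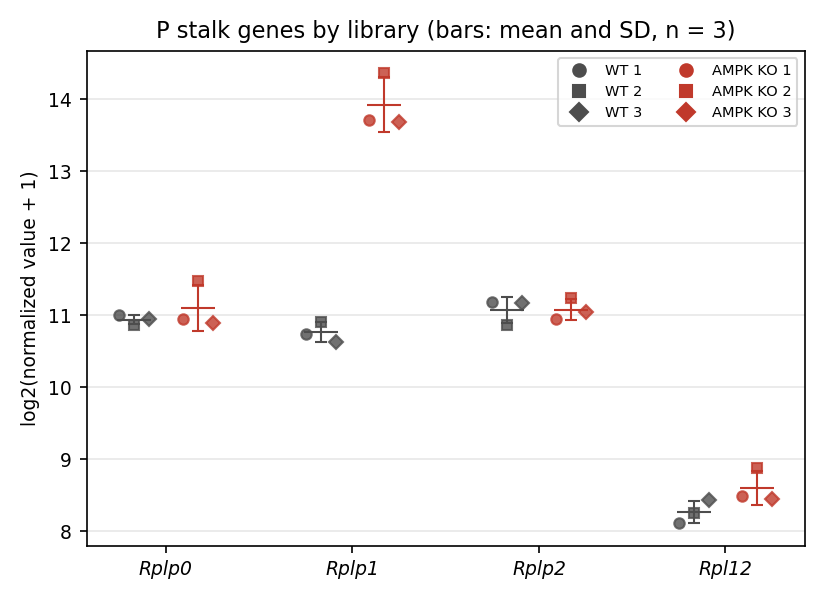
Log2 level of the 4 P stalk genes in each library, with the mean and SD of each group (n = 3). Rplp1 rose from 10.76 to 13.92 on average, while Rplp0, Rplp2 and Rpl12 differed by 0.17, 0.00 and 0.34.

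The last 200 bases of the longest annotated Rplp1 transcript were also present, at 95% identity or more over at least 160 bases, in 2 other annotated genes, neither of which is listed in the files. Reads of such copies and of Rplp1 could not be separated here. Of the 10 tested genes nearest to Rplp1 on chromosome 9, 5 on either side, Kif23, a kinesin of cell division and the closest of them, was called lower (−1.61, limma adjusted p = 0.00072), and the other 9 were not called. The 5 tested genes with the highest Pearson r with Rplp1 over the 6 libraries were Zbtb42, Lilr4b, H3f3b, Smpdl3b and Jchain, each at 0.994 or more. With the wide gap in Rplp1, such an r mostly reflects a step between the groups, whatever its size. Zbtb42, for example, was at 0.84 to 1.42 and differed by 0.49 without being called (limma adjusted p = 0.55). No other ribosomal protein gene was among these 5.

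The 8 other called genes had far smaller differences, between 0.59 and 0.81. Rpl11 binds the 5S ribosomal RNA together with Rpl5 and can inhibit Mdm2 when it is not assembled. It was at 6.94, 7.44 and 6.99 in WT and at 7.86, 7.75 and 8.05 in AMPK KO. The groups did not overlap, and the difference was 0.77 ± 0.16 (SE, limma adjusted p = 0.014). Its partner Rpl5 was at 11.31, 11.35 and 11.24 in WT and at 11.64, 11.90 and 11.60 in AMPK KO, also without overlap, but the difference of 0.41 was not called (limma adjusted p = 0.14). Of Mdm2 (−0.24), its substrate Trp53 (0.04) and the p53 target Cdkn1a (0.37), limma called 0, and 0 had a p under 0.05 before adjustment.

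Rpl4 and Rpl39 line the exit tunnel, through which the new chain leaves the ribosome. Rpl4 was at 11.03, 11.57 and 11.23 in WT and at 12.08, 11.72 and 12.23 in AMPK KO, a difference of 0.73 ± 0.19 (SE, limma adjusted p = 0.035). Under quantile normalization its difference was 0.44 and the call was lost (limma adjusted p = 0.19), as it was under cyclic loess normalization (0.072) and when scaled to reads outside Rn45s (0.053). Rpl39 was at 9.20, 9.79 and 9.18 in WT and at 9.99, 9.99 and 10.06 in AMPK KO, a difference of 0.63 ± 0.17 (SE, limma adjusted p = 0.039). For both genes WT 2 was the WT library nearest to AMPK KO. They were the only called genes among 9 of the tunnel and its rim, and the other 7, Rpl17, Rpl19, Rpl22, Rpl23a, Rpl26, Rpl31 and Rpl35, ranged from −0.11 for Rpl23a to 0.34 for Rpl17. Around the peptidyl transferase centre, Rpl3 differed by 0.20, Rpl8 by 0.00 and Rpl10 by 0.25, and 0 of the 3 were called. Rpl30 was at 8.31, 8.53 and 8.44 in WT and at 8.91, 9.09 and 9.10 in AMPK KO, with close replicates in both groups and a difference of 0.60 ± 0.13 (SE, limma adjusted p = 0.019).

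In the small subunit, Rps27a and Rps12 belong to the beak, a protrusion of the head. Rps27a is made as a fusion with ubiquitin and is thereby also a source of ubiquitin. It was at 9.43, 10.11 and 9.45 in WT and at 10.54, 10.19 and 10.69 in AMPK KO. WT 2 and AMPK KO 2 lay close together, and the difference was 0.81 ± 0.19 (SE, limma adjusted p = 0.025). Rps12 was at 8.62, 8.66 and 8.61 in WT and at 9.09, 9.58 and 8.98 in AMPK KO, a difference of 0.59 ± 0.16 (SE, limma adjusted p = 0.044). The remaining beak gene, Rps10, differed by −0.02. Copies of the last 200 bases were annotated in 21 other genes for Rps12 and in 9 for Rps27a, none of them listed, so these levels may hold reads of copies.

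Rps19, which matures the small subunit and is mutated in Diamond-Blackfan anaemia, was at 8.996, 9.16 and 8.81 in WT and at 9.43, 9.70 and 9.64 in AMPK KO. The groups did not overlap, the difference was 0.60 ± 0.14 (SE, limma adjusted p = 0.027), and 8 other genes held copies of its last 200 bases, of which Rps19-ps3 was listed. Rps24 was at 10.14, 11.01 and 10.31 in WT and at 11.41, 10.91 and 11.52 in AMPK KO. It was the only called gene whose groups overlapped, because AMPK KO 2 was below WT 2, and its difference was 0.79 ± 0.22 (SE, limma adjusted p = 0.047). Rps24 was called in 4 of the 17 alternative fits, with limma adjusted p from 0.0016 to 0.27. The lowest came from a fit with a term that divided the libraries by their own expression values, and that fit is among the 4.

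**Figure D4:**
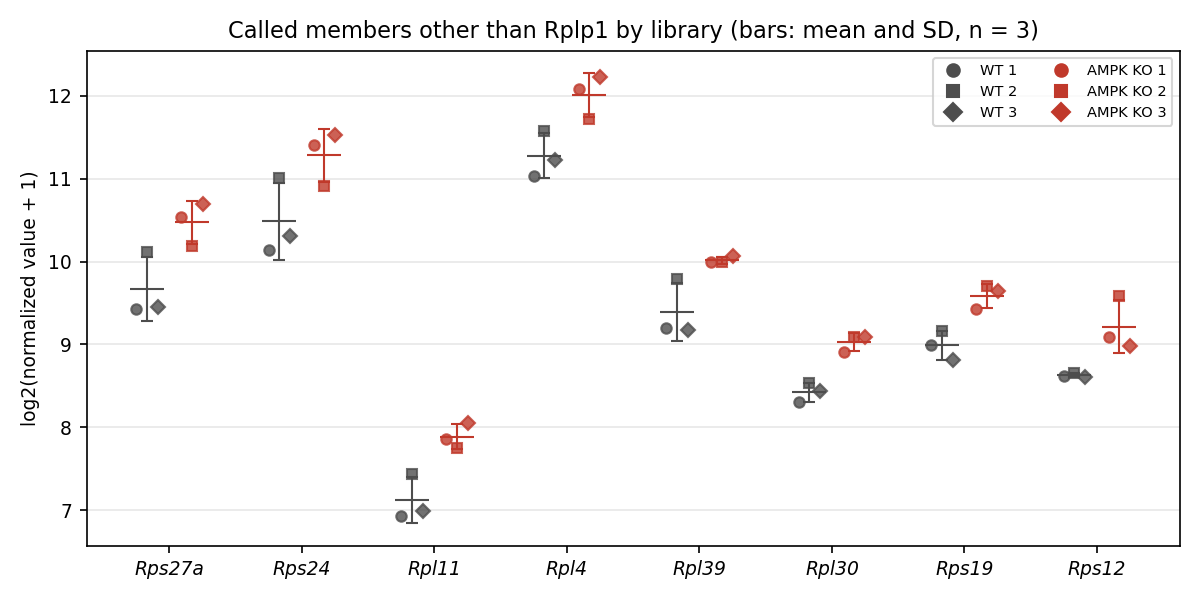
Log2 level of the 8 called genes other than Rplp1 in each library, with the mean and SD of each group (n = 3). In Rps24 the square of AMPK KO 2 lies below the square of WT 2, and in the other 7 genes all AMPK KO libraries lie above all WT libraries.

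Several genes had differences as large as the called genes but wider spread. Rps23, which lies at the decoding site, was at 10.19, 11.00 and 9.93 in WT and at 11.30, 10.86 and 11.50 in AMPK KO. Its difference of 0.85 just missed the threshold (limma adjusted p = 0.051). Rps2, at the mRNA entry channel, was at 6.75, 7.79 and 6.72 in WT and at 8.17, 7.10 and 8.50 in AMPK KO, with a difference of 0.83 (limma adjusted p = 0.14). In both genes AMPK KO 2 was below WT 2. Of the 4 genes of mRNA entry and decoding 0 were called, and the remaining ones were Rps3, a protein of the entry channel (0.38), and Rps15 (0.12). Of 6 genes of the mRNA exit and platform 0 were called, with differences from −0.06 for Rps14 to 0.28 for Rps28. Among the latter, Rpsa, which doubles as the laminin receptor, was at 10.58, 10.44 and 10.56 in WT and at 10.49, 11.02 and 10.41 in AMPK KO, a difference of 0.12. Rps6, the substrate of S6 kinase downstream of mTORC1, was at 9.66, 9.92 and 9.54 in WT and at 10.15, 10.15 and 10.33 in AMPK KO. Its groups did not overlap, but the difference of 0.50 was not called (limma adjusted p = 0.057).

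The lowest differences were those of Rps4l (−0.22), Rpl6 (−0.14), Rpl7l1 (−0.12), Rpl23a (−0.11) and Rpl28 (−0.08), and none of these was called. In all 5 the groups overlapped.

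The library numbered 2 of each group stood apart from the others in a way that divided the genes. For 13 of the 82 genes, Rpl4, Rpl7, Rpl7a, Rpl11, Rpl21, Rpl22l1, Rpl39, Rps2, Rps4l, Rps6, Rps23, Rps24 and Rps27a, AMPK KO 2 was below the mean of AMPK KO 1 and 3, and in all 13 WT 2 was above the mean of WT 1 and 3. These 13 genes had a median difference of 0.70 between the groups and included 5 of the 9 called genes. For the other 69 genes AMPK KO 2 was above its group, by a median of 0.53, the median difference between the groups was 0.19, and 4 were called. In 23 of these 69 genes WT 2 was also above the mean of WT 1 and 3. The extremes were Rps2, where WT 2 was 1.05 above and AMPK KO 2 was 1.24 below the other libraries of their group, and Rps27, where WT 2 was 0.40 below and AMPK KO 2 was 1.14 above. Across the 82 genes the deviation of WT 2 and that of AMPK KO 2 had a Pearson r of −0.88, and across all 11279 tested genes the r was −0.32. This is a description of 2 libraries over genes that share them. Rplp1 was among the 23 genes in which both deviations were above 0, and its WT 2 and AMPK KO 2 values were each the highest of their group. The median GC content of the last 200 bases was 41.8% in 12 of the 13 genes, the ones with an annotated transcript, and 46% in the 69 genes. Over 81 genes, GC content had a Spearman rho of 0.31 with the deviation of AMPK KO 2 and of −0.30 with that of WT 2, and over 10381 tested genes the values were 0.35 and −0.22. For the same genes, GC content and the difference between the groups had a Spearman rho of −0.32, against −0.02 over 10381 tested genes.

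**Figure D5:**
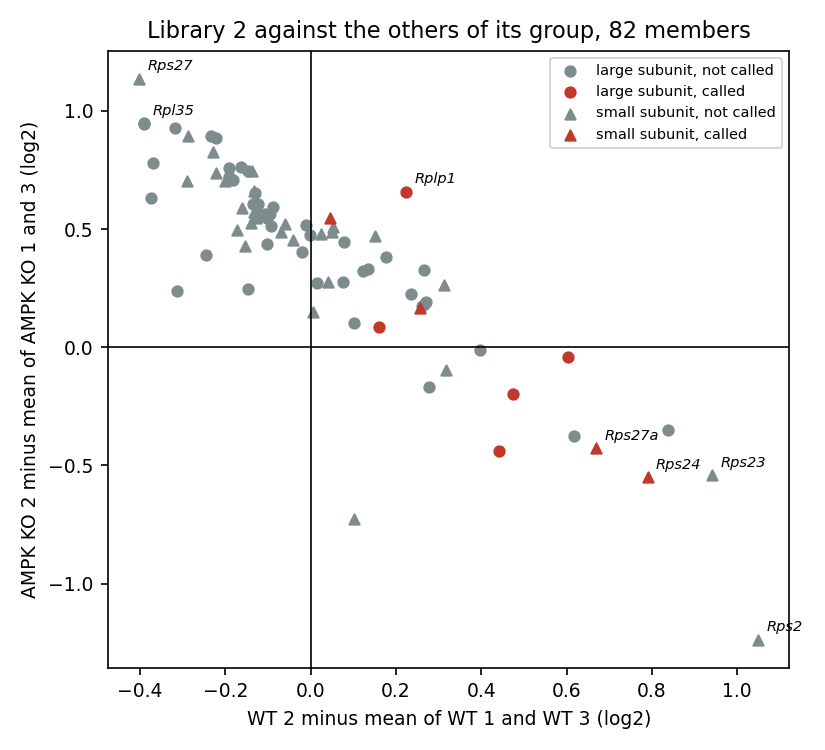
Deviation of WT 2 (x) and of AMPK KO 2 (y) from the mean of the other libraries of its group, in log2, for the 82 tested genes by subunit and call. Genes run from Rps27 at the upper left to Rps2 at the lower right, and 13 genes lie below the horizontal line at 0, all to the right of the vertical line.

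The balance between the subunits differed between the groups with Rplp1 and overlapped without it. In the large subunit 5 of 49 genes were called higher and the median difference was 0.25, with 42 genes above 0 and 18 whose AMPK KO libraries all lay above WT. In the small subunit 4 of 33 genes were called higher and the median was 0.23, with 29 genes above 0 and 10 whose AMPK KO libraries all lay above WT. Of all tested genes 2.54% were called higher and 11.6% lay above WT in this way. Reads on small subunit genes per read on large subunit genes were 0.809, 0.825 and 0.815 in WT and 0.683, 0.681 and 0.702 in AMPK KO, with a clear gap between the groups. Without Rplp1 the ratios were 0.830, 0.850 and 0.835 in WT and 0.811, 0.828 and 0.837 in AMPK KO, and the groups overlapped.

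Paralog pairs, in which a gene is accompanied by a diverged or tissue-restricted copy, were compared within each pair. Rpl22 differed by 0.23, and its paralog Rpl22l1, which can replace it in the ribosome, was at 8.10, 8.89 and 7.997 in WT and at 9.07, 8.79 and 9.21 in AMPK KO, a difference of 0.70 that was not called (limma adjusted p = 0.058). Rps27 differed by 0.13 with AMPK KO 2 high, and Rps27l, a p53-inducible paralog, was at 4.44, 5.07 and 5.16 in WT and at 5.54, 5.64 and 5.36 in AMPK KO. The Rps27l groups did not overlap and the difference of 0.63 was not called (limma adjusted p = 0.12). Rpl36a and Rpl36al differed by 0.45 and 0.39, both without overlap and both not called. Rpl7 differed by 0.53 and Rpl7l1 by −0.12, and Rps4x by 0.20 and the pseudogene Rps4l by −0.22, none of which was called. No difference between the members of a pair was tested. For Rpl3, Rpl10 and Rpl39 the paralog was too low to be tested. Rpl10l had 0 reads in all libraries, Rpl3l had 27 reads in WT 3, 8 in AMPK KO 1 and 0 in the other 4, and Rpl39l had 1, 0 and 3 reads in WT and 31, 13 and 32 in AMPK KO. Rpl39l is mainly known from testis, and its groups did not overlap. Among the genes on the X chromosome, Rpl39 was called, while Rpl36a (0.45), Rpl10 (0.25) and Rps4x (0.20) were not, and the part of the difference in Xist and Ddx3y was not tested.

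By mean 3′ tag level the highest genes were Rps20 (12.84), Rps14 (12.77), Rplp1 (12.34), Rps15a (12.32) and Rpl22 (12.29). The place of Rplp1 differed between the groups, since its mean was 10.76 in WT and 13.92 in AMPK KO. The lowest were Rpl10l (0), Rpl3l (0.46), Rpl39l (0.91), Rps4l (1.96) and Rps27l (5.20). Across the 82 genes the mean level and the difference had a Spearman rho of −0.08.

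Genes that work with these were counted from further lists. The ribosome components Fau and Gnb2l1, which lie outside the symbol rule, differed by −0.07 and 0.10 and were not called. Of 15 other TOP mRNAs 1 was called higher, Naca, a subunit of the nascent chain complex (0.63, limma adjusted p = 0.044), and the median was 0.24. Eef1a1, the elongation factor that brings aminoacyl-tRNA, differed by 1.15 without being called (limma adjusted p = 0.097). Of 61 initiation and elongation factors 1 was called higher, the initiation factor subunit Eif3m (0.90, limma adjusted p = 0.034), and 1 lower, the Y-linked Eif2s3y (−1.06, limma adjusted p = 0.025), with a median of 0.05. Of 9 TOP regulators and kinases 0 were called, and 8 of them were below 0, while Eif4ebp1, the translation repressor that mTORC1 phosphorylates, was above 0 (0.77, limma adjusted p = 0.22). Of all tested genes 51.2% were above 0. The 8 include Prkaa1, the gene targeted in AMPK KO, and genes with few reads, such as Rps6kb2 with 3 to 40 and Akt1s1 with 7 to 50. Larp1 differed by −0.01 and Mtor by −0.42. Of 7 ribosomal protein chaperones and assembly partners 0 were called, and 1 had an unadjusted p under 0.05, Pdcd2 (0.95). Of 76 mitochondrial ribosomal protein genes 0 were called and 8 had an unadjusted p under 0.05, where 21.3% of all tested genes did, and their median was 0.09, beside 0.24 for the cytosolic genes. Of 7 listed pseudogenes 1 was called higher, Rps15a-ps6 (0.56, limma adjusted p = 0.036), and Rplp2-ps1 differed by 0.01, as Rplp2 did by 0.00.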

How the data were processed

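RNA from 3 WT and 3 AMPK KO samples was made into QuantSeq 3′ libraries from 500 ng of total RNA. The authors deposited 1 table per sample, whose values are log2 of a TMM- and CPM-normalized value plus 1. The submitters' processing notes name Bowtie2, bedtools and mm10. Annotation, strand and filters are not given in the sources used here, so reads of overlapping genes could not be told apart. Values at up to 100 reads were whole multiples of 1 read within 0.1 in 100% of cases, so reads could be recovered, and depth limits only the lowest genes.

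The deposited log2 values of genes with a mean of at least 1 were fitted with limma 3.58.1 in R 4.3.3 (trend, genotype only, two-sided, Benjamini-Hochberg over all tested genes). The study calls the samples biologically independent. Alternatives were other scalings, a pseudocount of 0.25, other filters, a replicate block, a library term, robust estimation, voom on recovered reads and leaving out each library. Genes named were those called, the 5 highest and 5 lowest differences and mean levels, the P stalk, paralog pairs, and genes with set roles. The symbol rule used no values, but this group of genes and all lists were chosen with earlier results of these data known. Copies were searched with blastn 2.17.0 in GENCODE M21 transcripts, and positions and promoters are from RefSeq.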

Additional observations from a re-analysis of the deposited data

How the results depend on the processing

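The higher level of Rplp1 kept its direction and its call under each of the 17 alternatives with a fit, at 2.74 to 3.27 and limma adjusted p of 1.0e-15 to 0.0014, and at 2.94 to 3.27 when a library was left out. The limma adjusted p of 1.0e-15 came from the fit with the division term described below. No gene was called lower under any alternative. The count of 9 genes called higher (5 large, 4 small) became 5 (3 and 2) when scaled to reads outside Rn45s, where 2.08% of all tested genes were called higher, and 2 (2 and 0) without a filter on low values, where 0.822% of 15930 genes were. Rps24, called in 4 of 17 alternatives, and Rpl4, called in 8, lost their call among others under quantile and cyclic loess normalization and when scaled to reads outside Rn45s, and Rpl39 under quantile normalization and that scaling, which also lost Rps12. With a model term dividing the libraries as earlier results had shown (WT 1, WT 3 and AMPK KO 2 against the rest, a division of the data and not of the labels) it became 37 (24 and 13), while calls higher over all tested genes went from 2.54% to 5.89%. That division was drawn from the expression values themselves, so a smaller residual spread follows from its construction and the count supports nothing. The same holds for the adjusted p-values of this fit, which is among the 17 alternatives and among those that called Rps24 and Rpl4. Leaving out a library gave 1 to 18 genes (1 to 10 large, 0 to 8 small), and medians of 0.0495 to 0.37 for all genes, 0.043 to 0.37 for the large and 0.0598 to 0.33 for the small subunit. Quantile normalization moved the median of all genes to 0.092, of the large subunit to 0.0975 and of the small subunit to 0.0809. The cause of these changes was not tested. With the replicate block the count was 1 (1 large, 0 small), Rplp1, and 0.443% of all tested genes were called higher. Libraries of the same number did not deviate together (correlations of −0.08, −0.32 and −0.16 over all tested genes), so the numbers were not read as pairs.

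Genes with differences near 0 changed sign without being called. Under quantile normalization Rplp0 was at −0.043, Rplp2 at −0.24, Rpl22 at −0.0911 and Rps20 at −0.14. Under cyclic loess normalization Rplp2 was at −0.0597 and Rps20 at −0.0171. Rplp2 was at −0.0682 when scaled to reads outside Rn45s, and at −0.0023 when scaled to reads outside Rn45s and outside ribosomal protein genes. With the division term Rpl28 was at 0.035 and Rps14 at 0.12. Leaving out a library gave ranges of −0.33 to 0.13 for Rps14, −0.26 to 0.036 for Rpl28, −0.10 to 0.0658 for Rplp2, −0.0147 to 0.27 for Rplp0, −0.25 to 0.43 for Rps27, −0.46 to 0.0238 for Rps4l, −0.0752 to 0.23 for Rpsa, −0.0572 to 0.43 for Rpl3 and −0.17 to 0.30 for Rps20. Without a filter Rpl39l differed by 1.44 (limma adjusted p = 0.053) and Rpl3l by −0.43. A fold of at least 1.5 left all 9 calls.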
